A study of Mus musculus with 6 samples.

Results

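Peaks were examined on the sequence that the mm9 mouse assembly could not place and, apart from it, on the sequence beside the centromeres. The unplaced peaks were all H3K27me3 peaks on chrUn_random or on an autosome sequence whose name ends in _random. The centromere-near peaks were all peaks on chromosomes 1 to 19 that ended before 5 Mb. Together they were 727 of the 11214 peaks of the series, 384 unplaced and 343 centromere-near. The remaining autosomal peaks, 10275 in number, served as the comparison, and 212 peaks on other sequences were left out. No peak lay on chrX_random or chrY_random.

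H3K27me3 is the trimethyl mark that the polycomb repressive complex sets on lysine 27 of histone H3, and it is known for covering silent developmental genes. Mouse chromosomes are telocentric, so each assembled autosome begins with a gap that stands for the centromere and the major satellite, the tandem repeat of pericentromeric heterochromatin. That heterochromatin is known mainly for another mark, trimethylated lysine 9 of histone H3. Unplaced sequence in a mouse assembly is often repeated or duplicated, which is what kept it off the chromosomes.

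The cells were primary mesangial cells of the mouse glomerulus, the contractile support cells of the kidney filter, at passages 3 to 6 in medium with 25.5 mM glucose and 20% fetal bovine serum. In the TGF-beta1 group, 3 samples received transforming growth factor beta 1 at 10 ng/ml for 72 h, and the Control group held 3 samples without it. TGF-beta1 is a cytokine that drives matrix production in these cells. The study's text calls its samples biological replicates, but no label says that they came from separate animals or cultures, so the tests measure the spread between these samples, which may be technical. Cultured cells were measured in bulk, so fewer cells with the mark and less mark per cell cannot be told apart. The titles and antibody label name H3K27me3, whereas the extraction text describes an immunoprecipitation of methylated DNA and the file headers name genomic DNA libraries. Which of these was followed was not tested. None of 6 mesangial marker genes (Pdgfrb, Itga8, Des, Acta2, Gata3, Thy1) and none of 4 endothelial ones had a peak within 2 kb of its start in any sample, 1 of 4 tubular genes did in all 6 (Cdh1) and 2 of 4 podocyte genes did in 1 sample each. Peak lists do not measure expression, so the cell type itself was not checked. The libraries held 24753483 to 25635595 tags, of which 19721434 to 22307716 were kept after same-start tags were counted once. The peak lists ranged from 878 to 2699 peaks, and TGF-beta1 sample 2 gave the shortest list although its tag number after this step was the highest of the 6.

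The sequences of the regions called near the centromeres show what kind of DNA lay under the peaks. All 19 autosomes of the reference start at base 3000001, so the centromere-near set covered at most 2 Mb of sequence per chromosome. On chromosome 9 the sequence began with a tandem array with a period of 234 bases, the unit length of the mouse major satellite. The period was measured only in the called regions of the array, the last ending 22.6 kb from the first base. The array reached 38.5 kb, measured with words of 15 bases from the 2 regions called there in all 6 samples (chr9:3000015-3004773 and chr9:3006318-3017214). That these regions lie inside it was therefore fixed in advance. Bases 1 period apart were identical at 74.5% of positions in the first region and 61.6% in the second, so the array was not uniform. The unit shown, chr9:3003274-3003507 on the plus strand, was chosen as the one most like the unit after it, at 97.4% identity. The strongest centromere-near region called in all 6 samples, chr12:3109758-3110224, held the same repeat in the opposite orientation. In these sequences capitals mark the bases covered by words of 15 letters that the unit and the chromosome 12 stretch (chr12:3109846-3110141, plus strand) have in common or, for the stretch, that it shares with the chromosome 9 array on either strand.

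chromosome 9 unit: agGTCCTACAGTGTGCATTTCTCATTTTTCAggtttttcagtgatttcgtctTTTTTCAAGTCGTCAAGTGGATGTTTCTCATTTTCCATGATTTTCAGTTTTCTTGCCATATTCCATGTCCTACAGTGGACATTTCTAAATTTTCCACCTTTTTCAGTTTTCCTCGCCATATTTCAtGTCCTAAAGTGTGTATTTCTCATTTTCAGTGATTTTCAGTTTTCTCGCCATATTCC

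chromosome 12 stretch: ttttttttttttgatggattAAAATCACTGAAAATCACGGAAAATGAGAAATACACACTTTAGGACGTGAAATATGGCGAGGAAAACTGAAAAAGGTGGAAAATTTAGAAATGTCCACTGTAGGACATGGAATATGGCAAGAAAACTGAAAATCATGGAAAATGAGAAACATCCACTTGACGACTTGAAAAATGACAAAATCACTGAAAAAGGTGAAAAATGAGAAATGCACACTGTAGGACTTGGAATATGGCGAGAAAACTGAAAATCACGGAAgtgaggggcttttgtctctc

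Of the 234 bases of the unit, 210 lay in shared words, and of the 296 bases of the stretch, 256 did. A second tandem repeat, with a period of 42 bases and 94.6% identity from one unit to the next, filled chr2:3881921-3884721, a region called in 4 samples. Its words of 31 bases occurred a median of 51 times in the genome, copies inside the region included. Of the stretch chr2:3883321-3883530 on the plus strand, 5 units are shown, with every second unit in capitals.

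chromosome 2 stretch: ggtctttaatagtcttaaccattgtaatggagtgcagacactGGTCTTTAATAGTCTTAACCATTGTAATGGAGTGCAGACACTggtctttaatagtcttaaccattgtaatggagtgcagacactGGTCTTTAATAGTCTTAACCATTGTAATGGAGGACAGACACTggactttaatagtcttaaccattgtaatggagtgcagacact

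A contrasting sequence without tandem units lay under chr6:3150741-3151671, which was called in all 6 samples. This region was rich in CpG dinucleotides, with an observed-to-expected CpG ratio of 0.97, and 60.2% of its words of 31 bases occurred again in the genome. It lay in no annotated gene and was not compared with known repeat families. In the stretch chr6:3151106-3151305 on the plus strand, capitals mark its 18 CpG dinucleotides.

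chromosome 6 stretch: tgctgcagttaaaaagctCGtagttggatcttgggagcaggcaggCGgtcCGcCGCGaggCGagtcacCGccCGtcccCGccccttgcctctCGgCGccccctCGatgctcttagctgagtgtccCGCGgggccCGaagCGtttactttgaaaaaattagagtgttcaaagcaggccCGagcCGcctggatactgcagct

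The unplaced sequences are not in the reference used here under the names the peak files give, so their bases, repeats and genes were not analysed here.

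The number of unplaced peaks overlapped between the groups. Control samples had 59, 70 and 76 unplaced peaks and TGF-beta1 samples had 61, 65 and 53. The groups overlapped, with means of 68.3 ± 8.62 and 59.7 ± 6.11 (SD, n = 3 each), a log2 difference of -0.19 (exact permutation test, two-sided, p = 0.3). With 3 samples against 3 this test cannot give a p below 0.1. The same direction appeared near the centromeres, where Control samples had 68, 63 and 58 peaks and TGF-beta1 samples had 59, 43 and 52. Here too the groups overlapped, at 63.0 ± 5.0 against 51.3 ± 8.02 (SD, n = 3 each), a log2 difference of -0.30 (exact permutation test, p = 0.2). The other autosomal peaks differed far more, with 2508, 2519 and 1834 peaks in Control against 1454, 754 and 1206 with TGF-beta1, a log2 difference of -1.04 without overlap (exact permutation test, p = 0.1).

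**Figure D1:**
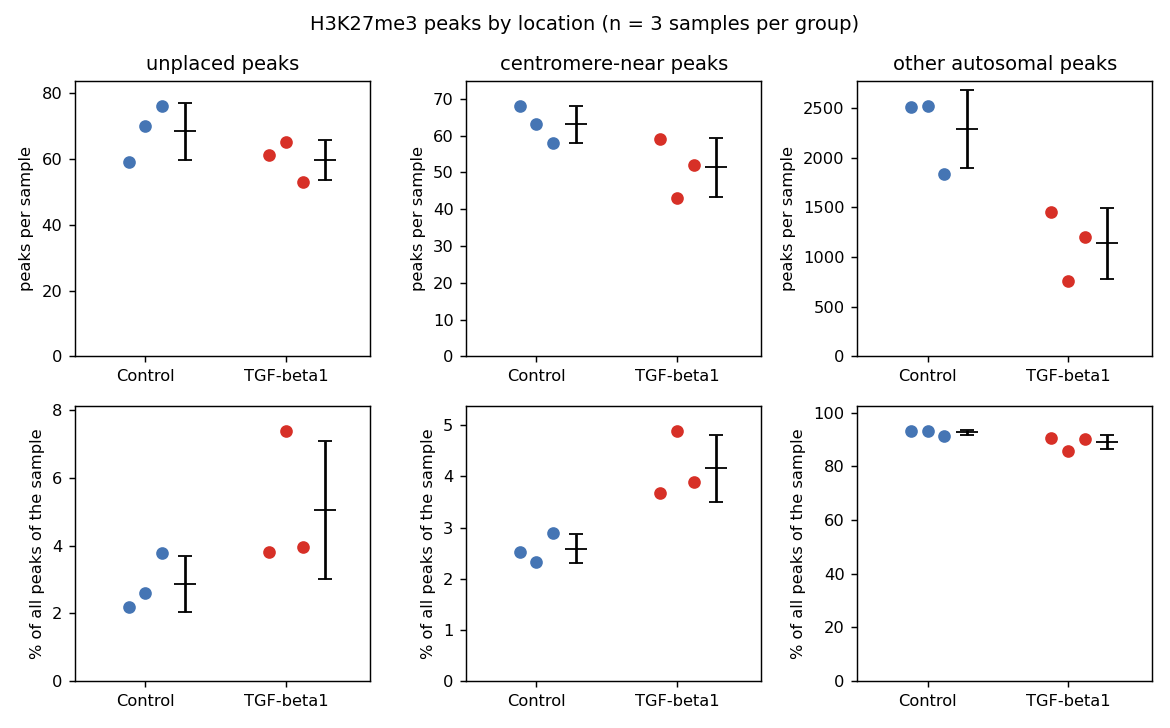
Peaks per sample (top row) and their percentage of all peaks of that sample (bottom row) for unplaced, centromere-near and other autosomal peaks, on linear axes from 0. Points are the 3 samples of a group and black bars the mean with SD. The 2 member sets overlap in number between the groups, and the other autosomal peaks do not.

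Against the other autosomal peaks of the same sample, both sets had higher ratios with TGF-beta1 in all 3 samples. The log2 ratio of unplaced to other autosomal peaks was 0.85 higher with TGF-beta1, and that of centromere-near to other autosomal peaks was 0.74 higher, without overlap in either case (exact permutation tests, p = 0.1 each, 0.267 after Benjamini-Hochberg adjustment over 8 tests). As a share of each list, unplaced peaks made up 2.19%, 2.59% and 3.79% in Control and 3.81%, 7.40% and 3.96% with TGF-beta1. All 3 TGF-beta1 samples were above the Control samples, though the highest Control and the lowest TGF-beta1 value were nearly equal, and TGF-beta1 sample 2 with its short list stood highest. The means were 2.86% ± 0.83 and 5.06% ± 2.03 (SD, n = 3 each; exact permutation test, p = 0.1). Centromere-near peaks made up 2.53%, 2.33% and 2.89% in Control and 3.68%, 4.90% and 3.89% with TGF-beta1. This gave means of 2.58% ± 0.28 and 4.16% ± 0.65 without overlap (SD, n = 3 each; exact permutation test, p = 0.1). Adjusted over the 10 tests of both sets, each of these p-values became 0.333. When every list was cut to its 878 strongest peaks, the log2 difference in the unplaced share went from 0.79 to -0.05. That in the centromere-near share went from 0.68 to 0.27 and kept its direction. The log2 difference in number went from -0.19 to -0.05 for unplaced and from -0.30 to 0.27 for centromere-near peaks.

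The strongest unplaced peaks were found at a similar number in both groups. Peaks with a -log10 q of at least 5 numbered 19, 21 and 19 in the Control samples and 20, 21 and 20 in the TGF-beta1 samples. They were 9.47% ± 0.70 of all peaks of that strength in Control and 17.4% ± 3.68 with TGF-beta1 (SD, n = 3 each), while those on the other autosomal sequence numbered 173 ± 19.1 and 85.3 ± 19.5 per sample. Near the centromeres, 12, 9 and 13 such peaks in Control stood beside 12, 9 and 10 with TGF-beta1. Unplaced peaks that were enriched 4-fold or more averaged 18.7 ± 4.04 per sample with TGF-beta1 and 15.3 ± 1.53 in Control (SD, n = 3 each). That direction is the opposite of the one for all unplaced peaks (log2 difference 0.27, exact permutation test, p = 0.3). Centromere-near peaks of that enrichment numbered 6, 2 and 4 in Control and 2, 2 and 1 with TGF-beta1, a log2 difference of -1.19 with overlapping groups (exact permutation test, p = 0.3).

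Mean covered length was lower with TGF-beta1 in both sets, and in each set 1 TGF-beta1 sample exceeded the lowest Control sample. Unplaced peaks covered 32.5, 42.6 and 41.9 kb in Control and 27.7, 33.6 and 24.7 kb with TGF-beta1, a log2 difference of -0.44 (exact permutation test, p = 0.2). Centromere-near peaks covered 46.8, 47.9 and 35.6 kb in Control and 37.2, 28.9 and 28.1 kb with TGF-beta1, a log2 difference of -0.47 (exact permutation test, p = 0.2). Other autosomal peaks covered 1235 ± 292 kb in Control and 515 ± 133 kb with TGF-beta1 (SD, n = 3 each).

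Unplaced peaks were narrower and more enriched than peaks near the centromeres in every sample. Their median width was 346, 330.5 and 352.5 bp in Control and 280, 309 and 282 bp with TGF-beta1. All 3 TGF-beta1 values lay under the Control values, a log2 difference of -0.24 (exact permutation test, p = 0.1), although the other autosomal peaks differed by -0.27 in the same direction. Centromere-near peaks had median widths of 510.5, 607 and 523.5 bp in Control and 530, 475 and 397 bp with TGF-beta1 (exact permutation test, p = 0.3). Fold enrichment compares the tag pileup of a peak with the local background that the peak caller derived from the library itself. Its median over unplaced peaks was 2.76, 2.47 and 2.64 in Control and 2.74, 2.76 and 3.35 with TGF-beta1 (exact permutation test, p = 0.3). Over centromere-near peaks it was 1.93, 1.65 and 2.003 in Control and 1.82, 1.84 and 1.93 with TGF-beta1 (exact permutation test, p = 1). The value for other autosomal peaks was 1.79 ± 0.09 in Control and 1.86 ± 0.04 with TGF-beta1 (SD, n = 3 each), so the medians of unplaced peaks stood above it and those of centromere-near peaks close to it.

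Recurrence set the sets apart more clearly than number. Peaks of the 6 samples that shared at least 1 bp were merged into regions, which gave 105 unplaced, 151 centromere-near and 6560 other autosomal regions. Of all 6924 regions of the series 3.47% were called in all 6 samples. Of the unplaced regions 40, or 38.1%, were, and of the centromere-near regions 16, or 10.6%. The other autosomal regions reached 2.67%. Where the peaks of a sample had to cover 50% of a region, 28 unplaced and 9 centromere-near regions were called in all 6, and when only the strongest peaks (-log10 q from 5 upwards) were kept, 4 of each were. Regions called in a single sample were 32 of the unplaced (30.5%), 90 of the centromere-near (59.6%) and 72.5% of all regions. Merged regions had a median width of 443 bp on unplaced and 535 bp on centromere-near sequence, and those called in all 6 samples 673 and 1131.5 bp.

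**Figure D2:**
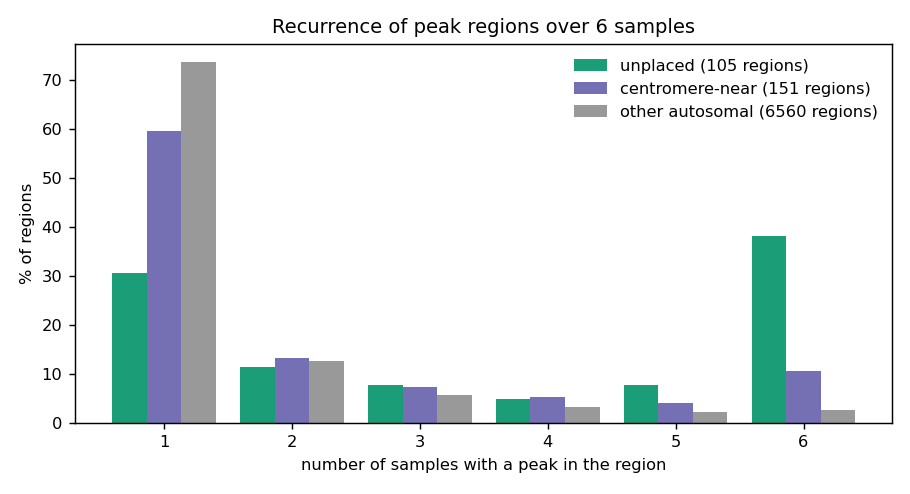
Percentage of merged regions (vertical axis) called in 1 to 6 of the 6 samples (horizontal axis), for 105 unplaced, 151 centromere-near and 6560 other autosomal regions. The unplaced bars are highest at 6 samples (38.1%), whereas the other sets are highest at 1 sample.

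Most unplaced regions found in Control were found again with TGF-beta1. Of the 62 unplaced regions called in at least 2 Control samples, 60 were called in at least 1 TGF-beta1 sample (96.8%), and of the 43 centromere-near regions 35 were (81.4%). Over all regions of the series this share was 56.5%. On the level of single peaks, 74.7% of the unplaced peaks of a Control sample overlapped a peak of a given TGF-beta1 sample, compared with 77.2% for another Control sample. For centromere-near peaks these averages were 46.0% and 50.6%, and for other autosomal peaks 19.4% and 38.0%. In the opposite sense, 84.4% of unplaced peaks of a TGF-beta1 sample overlapped a peak of a given Control sample and 81.0% a peak of another TGF-beta1 sample. These averages were 60.8% and 60.4% for centromere-near and 39.3% and 27.7% for other autosomal peaks. The Control lists were the longer ones, and the part of list length in these shares was not tested.

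Complete separation of the groups was rare among the member regions. No unplaced region was called in all 3 Control and no TGF-beta1 samples, and 1 centromere-near region was, where the background was 2.25% of all regions. It was chr5:4636139-4637463, with fold enrichments of 1.76, 1.66 and 1.68 in Control, in sequence without an annotated gene and 121 kb from the start of Fzd1, a Wnt receptor gene. In the opposite direction, 1 centromere-near region and no unplaced region was called in all 3 TGF-beta1 and no Control samples, against a background of 0.0867%. This region, chr11:3062678-3063104, lay in an intron of Sfi1 and had fold enrichments of only 1.04, 1.11 and 1.13.

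Among the unplaced sequences, chrUn_random held 336 of the 384 peaks, with 55, 54 and 65 in Control and 58, 54 and 50 with TGF-beta1. Its regions were concentrated between 3 and 6 Mb of that sequence, where successive 1 Mb stretches held 23, 22 and 31 regions and 11, 7 and 20 of these were called in all 6 samples. The sequence chr9_random had exactly 1 peak in each sample. By contrast, chr8_random had 10 peaks in Control sample 2, 7 in Control sample 3, 6 in TGF-beta1 sample 2 and none in the other 3 samples. These 23 peaks formed 16 regions, none of them in more than 3 samples, with fold enrichments from 1.18 to 2.85. The split crossed the treatment groups, and what set these 3 samples apart was not tested. On chrUn_random alone, the log2 difference in peak number was -0.10 (exact permutation test, p = 0.5), and on the autosome _random sequences alone it was -0.94 (exact permutation test, p = 0.3).

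The 5 unplaced regions with the highest mean enrichment were all among those called in every sample. The first, chr1_random:272376-273024, had fold enrichments of 6.82, 6.48 and 6.55 in Control and 6.16, 5.97 and 6.54 with TGF-beta1, a narrow range in which the groups overlapped. The second, chrUn_random:5745687-5747473, had 6.96, 5.05 and 2.87 in Control and 8.85, 7.07 and 8.94 with TGF-beta1, all higher than in Control. At chrUn_random:3907172-3907926, the values were 4.14, 14.8 and 3.59 in Control and 3.45, 5.65 and 8.90 with TGF-beta1. The value of Control sample 2, the highest among the 40 unplaced regions called in all 6 samples, stood alone there. At chrUn_random:5813091-5813784 the 3 Control values, 6.32, 6.22 and 5.82, were above the TGF-beta1 values of 4.18, 5.27 and 4.13. At chrUn_random:4062750-4064279 the values were 8.41, 4.80 and 1.52 in Control and 3.99, 6.38 and 7.66 with TGF-beta1, a spread within Control that was wider than the difference between the groups.

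The satellite-bearing region chr12:3109758-3110224 had fold enrichments of 5.56, 5.03 and 5.77 in Control and 5.12, 5.34 and 5.38 with TGF-beta1. Within these 6 values the groups overlapped, and the log2 difference was -0.05 with an SE of 0.11. It lay in sequence without an annotated gene, 127 kb from the nearest protein-coding start, that of 1700012B15Rik. At chr13:3372156-3372951, 165 kb from Gdi2, which encodes a Rab GDP dissociation inhibitor, values were 3.28, 2.97 and 4.96 in Control and 4.75, 3.76 and 3.46 with TGF-beta1. The CpG-rich chr6:3150741-3151671, 198 kb from the interferon-responsive gene Samd9l, had 2.75, 3.30 and 3.20 in Control and 2.32, 2.85 and 2.37 with TGF-beta1. Of the TGF-beta1 samples only sample 2 reached into the Control range. The 2 remaining regions of the strongest 5 lay on chromosome 16, at chr16:3114657-3117045 and chr16:3349863-3351624, at 477 and 242 kb from the nearest coding start, that of the olfactory receptor gene Olfr161. Their values ran from 1.94 to 3.01 and from 1.99 to 3.03, with overlapping groups. Of their words of 31 bases, 82.2% and 85.9% occurred more than once in the genome. Higher single values occurred at regions called in few samples. The highest, 15.9 at chr12:3978687-3979036, was called in Control sample 1 alone and was looked up after the values were seen.

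**Figure D3:**
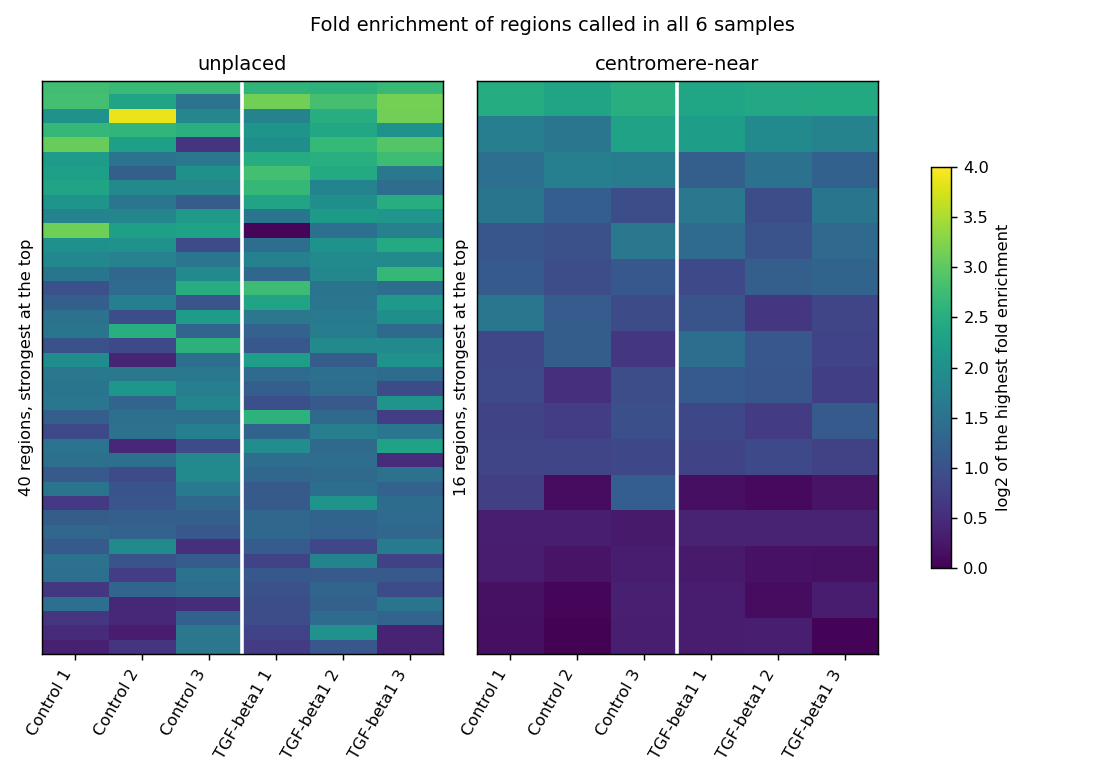
Highest fold enrichment, as log2 colour, of the 40 unplaced and 16 centromere-near regions called in all 6 samples (rows, strongest mean at the top) in each sample (columns, 3 Control left and 3 TGF-beta1 right of the white line). The strongest centromere-near row keeps 1 colour across the samples (5.03 to 5.77), while rows of both sets vary within a group.

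The enrichment of the shared regions was tested with limma over all 240 regions called in all 6 samples, taking for each sample the log2 fold enrichment of the most enriched peak in the region. None passed an adjusted p of 0.05 (0% of 240 regions), and the smallest adjusted p was 0.441 among the unplaced and 0.498 among the centromere-near regions. At an unadjusted p under 0.05, 5 of the 40 unplaced regions were higher with TGF-beta1 and 3 lower, against backgrounds of 7.5% and 2.5% of the 240 regions. None of the 16 centromere-near regions reached it. The median log2 difference was 0.13 over the unplaced, 0.05 over the centromere-near and 0.07 over all 240 regions. Regions whose TGF-beta1 values were all above the Control values were 3 of 40 unplaced and 1 of 16 centromere-near, against 12.1% of all 240. Regions whose values were all below were 5 of 40 and 0 of 16, against 5%.

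The 5 unplaced regions with higher values lay side by side. They were the 5 regions called in all 6 samples within 199 kb of chrUn_random (chrUn_random:5548719-5747473), a stretch drawn from the first to the last of them. Their log2 differences ran from 0.66 to 0.92. Since only 3 of the 40 unplaced regions had all TGF-beta1 values above Control, not all 5 were fully separated. The smallest p among them belonged to chrUn_random:5728092-5730910, with fold enrichments of 4.56, 2.88 and 3.04 in Control and 5.56, 5.66 and 6.76 with TGF-beta1. All TGF-beta1 samples were above Control there, a log2 difference of 0.81 with an SE of 0.21 (limma, adjusted p = 0.441). Of the 3 regions with lower values, 2 lay further along the same sequence. One was chrUn_random:5813091-5813784, already described, at -0.44 with an SE of 0.14. The other, chrUn_random:5822093-5822402, had 8.66, 4.86 and 4.99 in Control against 1.05, 2.76 and 3.36 with TGF-beta1, a log2 difference of -1.48 with an SE of 0.47 (limma, adjusted p = 0.441).

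Pileup, the number of overlapping fragments that the peak caller reports for a peak, passed the test at 2 of these places. At chrUn_random:5822093-5822402 it was 82.5, 48.0 and 47.8 in Control and 4.55, 8.31 and 8.16 with TGF-beta1. Scaled to the tags of each library, this was a log2 difference of -3.05 with an SE of 0.33 (limma, adjusted p = 0.00660), and it passed the test. At chrUn_random:5548719-5549424 pileup was 7.61, 4.92 and 8.93 in Control and 30.3, 23.2 and 39.9 with TGF-beta1, a log2 difference of 2.17 with an SE of 0.34 (limma, adjusted p = 0.0354). These were the only 2 of the 240 regions that passed on pileup, 0.417% in each direction. On fold enrichment, which divides by the local background, neither passed. For a region with several peaks the value is the highest of its peaks, and the peak that gives it can differ between samples.

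With all 19 autosomes pooled, density near the centromeres peaked in the first assembled megabase. Chromosome 11 alone held 95 of the 343 centromere-near peaks, and density without it was not computed. Over 37.9 Mb of sequence, the centromere-near set had 1.66 ± 0.13 peaks per Mb in Control and 1.36 ± 0.21 with TGF-beta1, against 0.97 ± 0.17 and 0.48 ± 0.15 on the rest of the autosomes (SD, n = 3 each). Within the set, the first megabase after the first base held 46, 43 and 42 peaks in Control and 49, 36 and 44 with TGF-beta1. These overlapped fully, a log2 difference of -0.03 (exact permutation test, p = 0.9). The second megabase held 22, 20 and 16 in Control and 10, 7 and 8 with TGF-beta1. All TGF-beta1 samples were lower there, a log2 difference of -1.22 (exact permutation test, p = 0.1), close to the -1.04 of the other autosomal peaks. The difference between both stretches was -1.18 (exact permutation test, p = 0.1, and 0.14 after adjustment over 7 tests added after the values were seen). With lists of equal length the values were 0.38 and -0.10. Of the 16 regions called in all 6 samples, 15 lay in the first megabase.

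**Figure D4:**
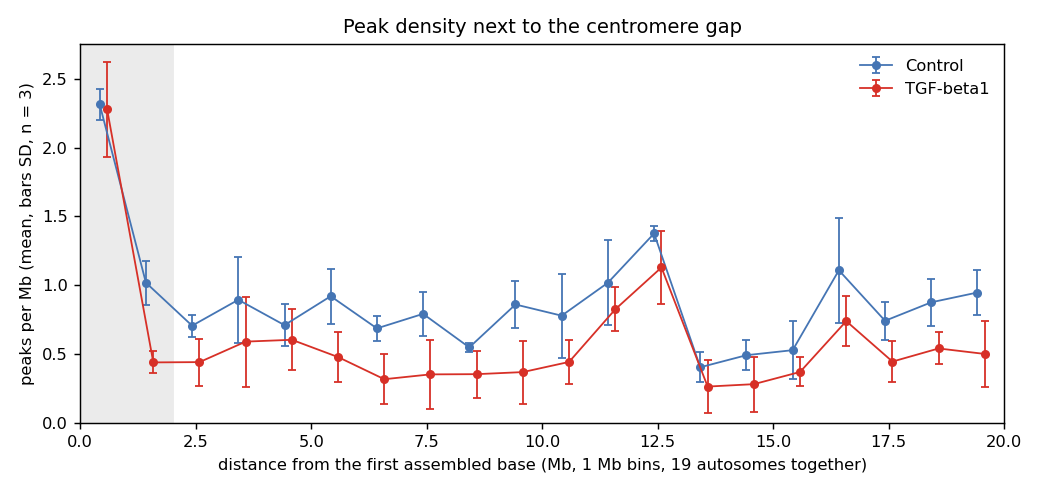
Peaks per Mb (mean, bars SD, n = 3) in 1 Mb bins from the first assembled base, all 19 autosomes together, for Control and TGF-beta1, with the centromere-near span shaded. The first bin is the highest for both groups, at 2.31 in Control and 2.28 with TGF-beta1, and in the next bin the values are 1.02 and 0.44.

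Repeated sequence was common under these peaks. A region was called repeat-rich where over 50% of its words of 31 bases had a further copy elsewhere in the genome. This held for 32 of the 151 centromere-near regions (21.2%) and for 9.91% of the 6560 other autosomal regions. With words of 49 bases, the length of the tags, 19 centromere-near regions were repeat-rich. Among regions called in all 6 samples the shares were closer, at 7 of 16 (43.8%) and 49.7% of 175. Peaks in repeat-rich centromere-near regions numbered 15, 19 and 17 in Control and 23, 16 and 22 with TGF-beta1, with overlap (log2 difference 0.25, exact permutation test, p = 0.3). Peaks in the other centromere-near regions numbered 53, 44 and 41 in Control and 36, 27 and 30 with TGF-beta1, without overlap (log2 difference -0.57, exact permutation test, p = 0.1). Their ratio moved by 0.82 on the log2 scale, and that of the other autosomal peaks by 0.86 (exact permutation tests, p = 0.1 each).

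Few other called regions held words of the chromosome 9 array. These words were taken from its 2 regions called in all 6 samples, and the rest of the genome was not searched for them. More than 5% of the words of 15 bases were array words in 8 of the 151 centromere-near regions, those of the array included. The same held for 8 of the 6560 other autosomal regions. Of these, 3 centromere-near and 7 other autosomal regions were called in all 6 samples. Beside chromosomes 9 and 12, they made up 17.6% of chr11:3001583-3002325, 13.8% of chr11:3000187-3000612 and 14.1% of chr4:3017267-3018641, regions called in 2, 3 and 5 samples. In the array itself, enrichment was low and background high. The peak nearest the first base had fold enrichments of 1.259, 1.249 and 1.226 in Control and 1.313, 1.264 and 1.325 with TGF-beta1. The latter were all above the former, though the closest values, 1.259 and 1.264, were nearly equal. In Control sample 1 this peak was 4743 bp wide, against 2321 to 2327 bp in the other samples. Its pileups were 116, 121 and 111 in Control and 106, 115 and 106 with TGF-beta1. The implied local background there was 79.8 to 96.8 fragments, whereas the median over the centromere-near peaks of a sample was 3.85 to 5.99. Over the whole first region, chr9:3000015-3004773, the log2 difference was 0.08 with an SE of 0.10. Both array regions overlapped exons of short predicted genes, Gm10722 and Gm11168 in the first and Gm10720 and Gm10721 in the second, and the noncoding Gm16869.

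**Figure D5:**
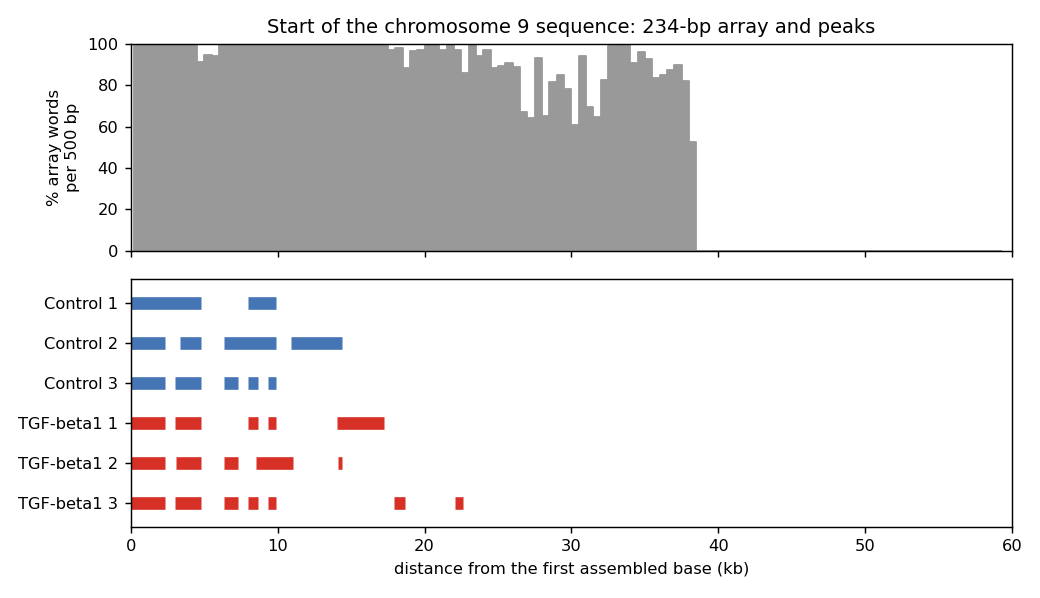
The first 60 kb of the chromosome 9 sequence: the percentage of words of 15 bases shared with the array regions in 500-bp windows (top) and the peaks of each sample as bars (bottom, Control blue, TGF-beta1 red), against the distance from the first assembled base in kb. The array reaches 38.5 kb, and the peaks of all 6 samples lie in its first 22.6 kb.

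Chromosome 11 held the largest number of centromere-near peaks, 95 of 343, with 13, 18 and 14 in Control and 17, 17 and 16 with TGF-beta1. Many lay in Sfi1, the gene of a centrosome and spindle protein, which had 49 peaks in all and at least 1 in every sample, with highest fold enrichments of 4.69, 2.26 and 3.97 in Control and 2.71, 3.02 and 3.07 with TGF-beta1. Some of these had a high implied background, at 19.8 to 34.4 fragments in Control for chr11:3077418-3078304, where only 1.28% of words were repeated. High background was not limited to Sfi1. At chr11:3674533-3675107 in Osbp2 it was 26.9 to 30.8 fragments in the 2 Control samples with a peak. At chr11:3068722-3069019, an intronic repeat with a period of 41 bases, the fold enrichments were 1.69, 1.101 and 2.28 in Control and 1.12, 1.08 and 1.16 with TGF-beta1 (log2 difference -0.54, SE 0.26; limma, adjusted p = 0.498). Pileup at this repeat went the other way, at 19.9, 37.1 and 16.1 in Control and 34.1, 36.7 and 33.8 with TGF-beta1. Scaled to the tags of each library, the log2 difference was 0.65 with an SE of 0.31 (limma, adjusted p = 0.488). The implied background was 6.5 to 33.6 fragments in Control and 29.2 to 34.1 with TGF-beta1. Without chromosome 11 the log2 difference in centromere-near peak number was -0.49, and without chromosomes 9 and 11 it was -0.65 (exact permutation tests, p = 0.1 each).

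Of 462 protein-coding genes that started and ended before 5 Mb, 48 had a peak in the gene or up to 2 kb upstream in at least 1 sample. The same held for 10.9% of all 21418 autosomal coding genes. Genes with a peak numbered 21, 21 and 17 in Control and 15, 13 and 14 with TGF-beta1, without overlap (log2 difference -0.49, exact permutation test, p = 0.1). Peaks in all 6 samples were found at 4 genes, where the background was 0.434%. These were Sfi1, the array genes Gm10722 and Gm11168, and Nefh, which encodes the heavy neurofilament subunit. At Nefh the region chr11:4847736-4848921 reached over the gene start with a GC content of 62.6%. Its fold enrichments were 1.12, 1.01 and 1.26 in Control and 1.24, 1.26 and 1.03 with TGF-beta1. The implied background there was 26.0 to 31.9 fragments in Control and 26.5 to 31.3 with TGF-beta1. The median over the centromere-near peaks of a sample was 3.85 to 5.99. Drg1, a GTPase gene that overlaps the Sfi1 locus, had peaks in 5 samples.

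Of the named genes, Sox17, Penk, Spnb3 and BC068157 had peaks in all 3 Control samples and in 1 TGF-beta1 sample. Sox17, a transcription factor of endoderm and endothelium, had fold enrichments of 1.87, 1.56 and 2.095 in Control and 1.55 in TGF-beta1 sample 3. These came from separate regions. Control sample 1 and TGF-beta1 sample 3 had a peak at chr1:4481871-4482817, and Control samples 2 and 3 at chr1:4483314-4483832. Penk, the gene of the opioid precursor proenkephalin, had 1.25, 1.44 and 1.94 in Control and 1.37 in TGF-beta1 sample 1. Spnb3, a beta spectrin gene, had 2.15, 1.92 and 2.53 in Control and 2.83 in TGF-beta1 sample 1, and BC068157 had 2.25, 1.70 and 1.85 in Control and 1.91 in TGF-beta1 sample 2. Osbp2, of the oxysterol-binding family, and the predicted gene Gm2897 had peaks in 2 samples of each group. Xkr4, of a family of membrane proteins linked to phospholipid scrambling, had peaks in 2 Control samples and 1 TGF-beta1 sample, the array genes Gm10721 and Gm10720 in 1 and 2, and Shisa7, of a family of receptor-associated membrane proteins, in 2 Control samples only. No gene had peaks in all 3 samples of a group and none of the other, where the background over all autosomal genes was 0.663% for Control and 0.00934% for TGF-beta1. By annotation, 84 of the 151 centromere-near regions lay in no annotated gene, 28 in introns of coding genes, 25 over coding exons, 7 over untranslated exons and 7 in noncoding genes or pseudogenes.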

How the data were processed

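H3K27me3 ChIP-seq peak lists of 3 Control and 3 TGF-beta1 samples were used. Per the file headers and methods, the authors mapped 49-base tags to mm9 with BWA, kept unique alignments and called broad peaks in each sample with MACS 2.1.0.20150731 at q cutoffs of 0.01 (strong) and 0.1 (weak), with no input control, same-start tags counted once and a local background over 10000 bp. The deposited values are the pileup signal, the fold enrichment ratio over that background, −log10 p and q values, and each peak's width. Implied background was computed as (pileup + 1) / fold enrichment − 1.

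Peaks sharing 1 bp were merged into regions. Group differences in log2 values were tested with two-sided exact permutation tests (n = 3 each), and regions called in all 6 samples with limma 3.58.1 in R 4.3.3 with Benjamini-Hochberg adjustment, after a test on simulated data. Fold changes were of log2 values without a pseudocount. Words of 31 bases were counted over the mm9 (NCBIM37) reference and genes taken from GENCODE M1 on that assembly. No peak ended past its chromosome. Named regions were, per set, the 5 with the highest mean log2 enrichment among those called in all 6 samples, those called in 1 group only and those with the smallest limma p per direction. Named genes were at most 15 with peaks in 2 or more samples, by number of samples and then enrichment, and the gene nearest each named region. Members and lists were chosen with earlier results of these data known. Tag totals are given in the report. Alternatives varied the peak threshold, joining, list length, limits of the sets, overlap rule, limma value, replicate block and samples.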

Additional observations from a re-analysis of the deposited data

How the results depend on the processing

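Of the peak-number, share, length, width and fold enrichment differences, none could pass at 3 samples a group, where the exact permutation test stops at 0.1. The labels give replicates a number and no pairing. Same-numbered samples deviated from their group means with correlations of -0.09, -0.04 and -0.15 over 240 regions. Such values, centred within 3 samples, cannot show whether same-numbered samples were cultured or processed together. With the replicate block (exact sign-flip test, which stops at 0.25) no call changed, at -0.19 for unplaced and -0.30 for centromere-near peak number. With -log10 q of at least 5, the log2 differences were 0.049 for unplaced peak number, 0.024 for centromere-near width, -0.39 for centromere-near fold enrichment and 0.11 for the first megabase, and regions called in all 6 samples numbered 4 unplaced and 4 centromere-near. With fold enrichment of at least 4, they were 0.27 for unplaced peak number, -0.40 for centromere-near share and -0.18 for centromere-near fold enrichment. With equal numbers of peaks, they were -0.049 for unplaced share, 0.27, 0.039 and -0.13 for centromere-near number, covered length and fold enrichment, 0.38 for the first megabase and 0.14 for centromere-near peaks in regions that are not repeat-rich. Unplaced width was 0.26 on autosome _random sequences alone. Centromere-near fold enrichment was -0.045 with an end under 4 Mb, -0.030 under 10 Mb and -0.071 with medians, and from -0.080 (without Control sample 2) to 0.061 when 1 sample was left out. Peak number in the first megabase ran from -0.13 to 0.090 without 1 sample, the highest value being without TGF-beta1 sample 2. Regions called in all 6 samples near the centromeres numbered 9 where peaks had to cover 50% of the region. On pileup scaled to library size, 2 unplaced regions passed limma. Centromere-near repeat-rich regions numbered 19 with words of 49 bases, and unplaced sequence could not be counted. The splits at 1 Mb and by repeats and the values without chromosomes 9 and 11 were chosen after seeing the data. The cause of these turns was not tested.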
